A study of Mus musculus with 230 samples.

Results

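Cells of the embryonic mouse pallium were split by whether they carried transcripts of Fezf2, a zinc finger transcription factor, and the 2 sets were compared across all other genes. The groups were selected on the RPKM of Fezf2 (reads per kilobase of gene and per M reads, M for mega): at least 1 for cells with Fezf2, and below 1 for cells without it. The rule placed 46 cells with Fezf2 and 75 cells without, all 121 of them from embryonic day 15 (E15), in a series of 230 cells. The other cells of the series, from postnatal day 2, are not used here. Fezf2 chose the groups, so its own values are a description.

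Every E15 cell shared 1 genotype, treatment and age. The mice were C57BL/6 and carried Neurog2CreERT, a tamoxifen-dependent recombinase under the control of the proneural gene Neurog2, together with the Ai14+/+ reporter, which makes the red protein tdTomato after recombination. Tamoxifen was given 12 h before the pallium was taken, and tdTomato-positive cells were sorted and captured singly on microfluidic chips. The recombinase marks cells that were using the Neurog2 locus around the injection, so the groups are 2 subsets of that labelled population and not of the whole pallium. Since animals and litters are not named in the labels, E15 is 1 sample and its cells cannot serve as replicates. The comparisons therefore carry no p-value and no standard error. Cell titles came in 2 formats, called A (60 cells) and B (61 cells), whose meaning the labels do not state, and every difference was computed within each of them.

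Fezf2 acts in the forebrain as a selector of subcerebral projection neurons, the layer 5 cells that send axons to the brainstem and spinal cord, and it is also expressed in radial glia of the dorsal telencephalon. In textbook accounts, Bcl11b (also called Ctip2) works downstream of it in corticospinal neurons, and Sox5 and Tbr1 hold it down in layer 6 and subplate neurons. Young neurons pass through states in which several of these factors are present before they settle into 1 type.

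Fezf2 was spread over a wide range among the cells that carried it. In the 46 cells with Fezf2 it ran from 1.09 to 136.6 RPKM, with a median of 12.8. Title format A held 22 of these cells among 60 (36.7%, exact Clopper-Pearson 95% interval 24.6 to 50.1%), with a median of 9.66 RPKM. Format B held 24 among 61 (39.3%, 27.1 to 52.7%), with a median of 16.1 RPKM. Both formats thus held Fezf2 cells at similar shares, with intervals that overlap over most of their length. These intervals, here and below, cover counting error only. Over both formats the share was 38.0% (29.3 to 47.3%).

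Most cells lay well away from the threshold. Of the 75 cells without Fezf2, 52 were listed at 0 and 23 were above 0, up to 0.884 RPKM. Among the 46 cells with Fezf2, 14 lay between 1 and 5 RPKM and 32 at 5 or more, and no cell lay between 3.35 and 6.62 RPKM. The 3 cells just under the threshold had 0.764, 0.805 and 0.884 RPKM, and the 3 just above it had 1.09, 1.17 and 1.20 RPKM. Read numbers, estimated for each cell from the spacing of its lowest values, put 17.2, 19.8 and 33.1 reads of Fezf2 behind the first 3 cells and 11.9, 23.8 and 23.8 behind the others. The threshold therefore did not separate cells by reads at its edge, since 1 RPKM of Fezf2 stood for 7.59 to 37.4 reads, depending on the cell. Cells with Fezf2 had a median of 249.9 estimated reads of it. The gene (ENSMUSG00000021743.6) is on the minus strand of chromosome 14 (GRCm38, 12342094 to 12348189), with 3047 bases of exon that no other annotated gene overlaps.

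**Figure D1:**
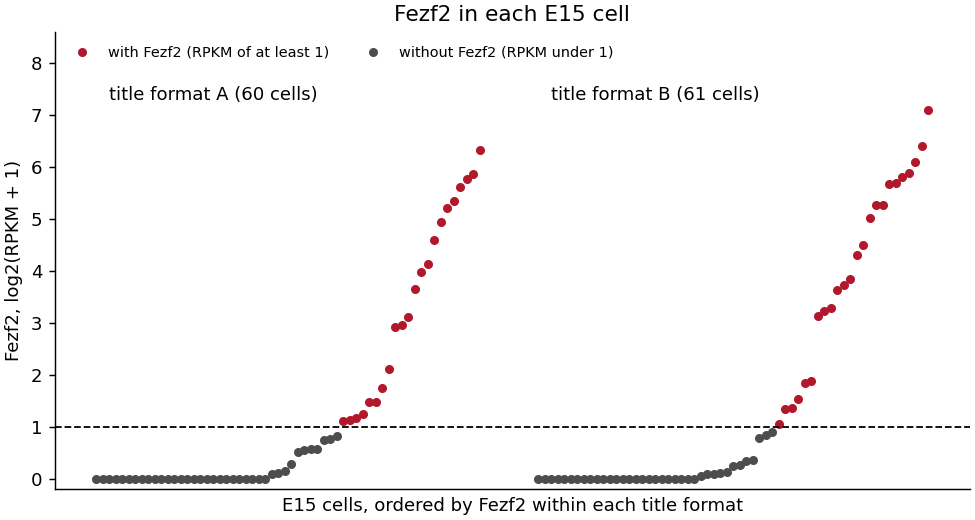
Fezf2 in each E15 cell as log2(RPKM + 1) on the vertical axis, with the cells ordered by that value within title format A (60 cells) and format B (61 cells). Red points are cells with Fezf2 (RPKM of at least 1), grey points are cells without it, the dashed line is the threshold, and the step in each format above the lowest red points is the gap between 3.35 and 6.62 RPKM.

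More genes were detected in cells with Fezf2 than in cells without it. A gene counted as detected in a cell at an RPKM of at least 1. In cells with Fezf2 the number of detected genes ran from 886 to 4017 with a median of 3078.5, and in cells without it from 809 to 4329 with a median of 2738. The difference between the medians was 340.5 genes, or 422 in format A (3014 against 2592) and 298 in format B (3169 against 2871). The ranges of the groups overlapped almost completely, while the medians lay apart in the same direction in both formats. In 13 cells the number of detected genes was below 50% of the E15 median. Among them, 2 had Fezf2 and 11 did not, and 9 of those 11 belonged to format A.

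Looked at from the other side, Fezf2 was found more often where more was found. Of the 41 cells with the fewest genes (809 to 2624), 26.8% had Fezf2 (interval 14.2 to 42.9%). The share was 30.0% (16.6 to 46.5%) of the next 40 cells (2641 to 3083 genes) and 57.5% (40.9 to 73.0%) of the 40 cells with the most (3088 to 4329 genes). Cells with Fezf2 at 5 RPKM or more numbered 7, 10 and 15 in these 3 sets. Across all 121 cells, Spearman's rho between Fezf2 RPKM and detected genes was 0.31, and within the 46 cells with Fezf2 it was -0.16, where both values come from the same library. The number of reads differed less than the number of genes, with medians of 3.29 M reads in genes with Fezf2 and 3.18 M without. The median share of mitochondrially encoded RNA in the RPKM total was 8.71% with Fezf2 and 9.24% without, and 7 and 15 cells were above 20%. What part the number of detected genes has in the differences below was not tested, and for the gene lists and the main genes the values in cells matched on it are given beside them.

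**Figure D2:**
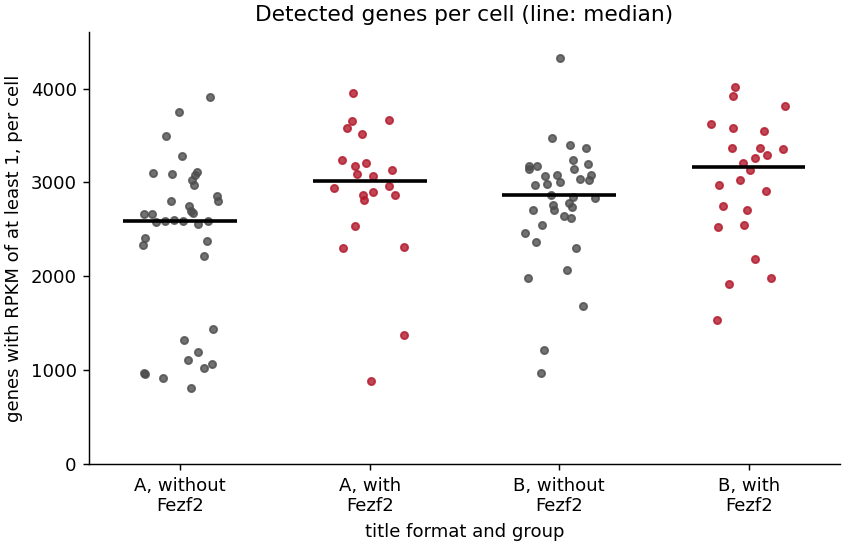
Number of genes with an RPKM of at least 1 in each E15 cell, by title format and by Fezf2, with 1 point per cell and a line at the median. The medians were 2592 without and 3014 with Fezf2 in format A, and 2871 and 3169 in format B, and the low group of points in format A is mostly of cells without Fezf2.

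Few genes differed between the groups by the stricter of the 2 rules used here, and those that did were higher with Fezf2. Levels were averaged over the cells of a group as log2(RPKM + 1), and a difference is the level with Fezf2 minus the level without. Of 46983 gene names, 8119 were measured, that is, found at 1 RPKM or more in 10% or more of the cells with Fezf2 or of those without. A gene was called when its difference was at least 1 in the same direction within each title format. By this rule 25 genes (0.308% of those measured) were higher with Fezf2 and 0 (0%) were lower. Over both formats pooled, 1.38% of the genes were at least 1 higher and 1 gene was at least 1 lower.

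The distribution of all genes was itself shifted towards the cells with Fezf2. Its median difference was 0.15 (0.18 in format A and 0.09 in format B), its 5th and 95th percentiles were -0.33 and 0.74, and 68.7% of the genes were above 0. By the looser rule of the same sign in each format, 3303 genes (40.7%) were higher and 1122 (13.8%) lower. Counts for gene groups below use this looser rule and are to be read against those shares. With the median of all genes taken off within each format, the looser rule gave 26.3% in each direction and the stricter one 14 higher (0.172%) and 2 lower (0.0246%).

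**Figure D3:**
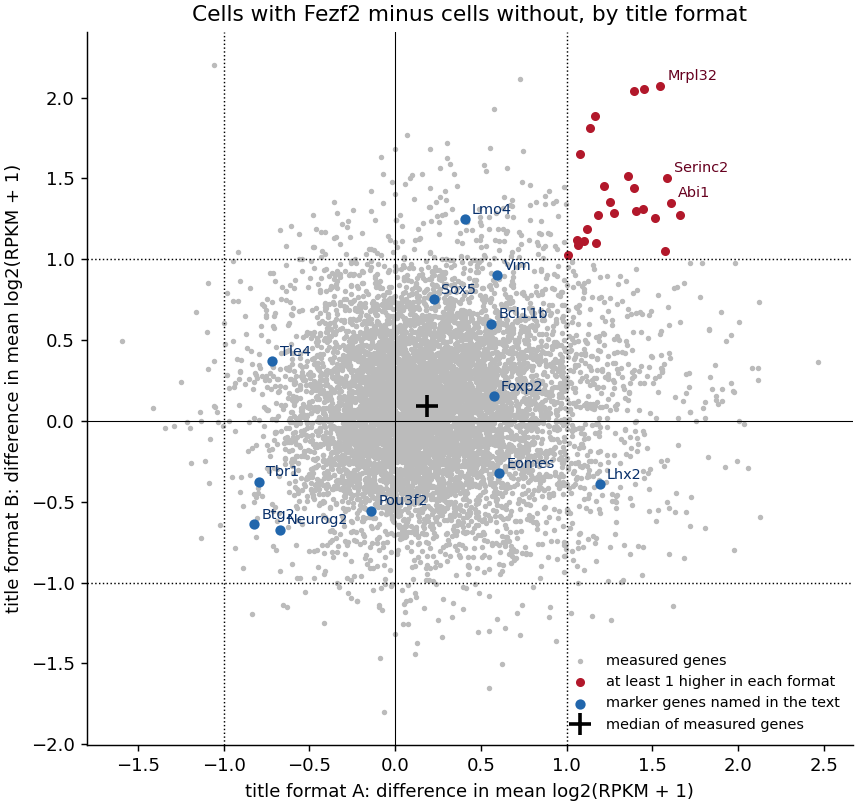
Difference in mean log2(RPKM + 1), cells with minus cells without Fezf2, in title format A (horizontal axis) and format B (vertical axis) for the 8119 measured genes. Red points are the 25 genes at least 1 higher in each format, blue points are markers named in the text, dotted lines mark differences of 1 and -1, and the cross is the median of all genes (0.18 in A and 0.09 in B). No gene lies beyond -1 in both formats.

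Mrpl32, a protein of the large mitochondrial ribosome subunit, led the 12 genes with the largest differences among those called. With Fezf2 it ran from 0 to 178 RPKM with a median of 23.3 and was detected in 29 of 46 cells (63.0%, interval 47.5 to 76.8%). Without Fezf2 it ran from 0 to 203 RPKM with a median of 0 and was detected in 24 of 75 (32.0%, 21.7 to 43.8%). The highest cells of both groups reached the same levels, and the groups differed in how many cells had the transcript. Its difference was 1.81 (1.54 in A and 2.07 in B).

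Serinc2, a membrane protein of the serine incorporator family, had a median of 5.30 RPKM (0 to 240) with Fezf2 and of 0 (0 to 160) without, and was detected in 69.6% and 36.0% of cells. The difference was 1.55, and it was nearly equal in the 2 formats (1.585 and 1.505). Abi1, an adaptor of the WAVE complex that drives actin branching, was detected in 54.3% and 22.7% of cells, with mean levels of 21.8 and 5.40 RPKM. It differed by 1.47 (1.61 and 1.35), and its exons overlap those of Pdss1. Cpe, the carboxypeptidase that trims neuropeptides and trophic factors, was at 1.77 (1.45 and 2.06), and Psma1, a subunit of the proteasome core, at 1.73 (1.40 and 2.04).

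The others of the 12 lay between 1.38 and 1.54. They were Mrpl34, another mitochondrial ribosomal protein (1.54), the myosin light chain Myl6 (1.47), the RNA-binding protein Hnrnpab (1.47), Ccdc124 (1.44), the prefoldin subunit Vbp1 (1.43), Pafah1b2, a catalytic subunit of the platelet-activating factor acetylhydrolase that binds the lissencephaly protein Lis1 (1.39), and Vta1, a factor of endosomal sorting (1.38). In each of the 12 the ranges of the 2 groups overlapped from 0 upwards. The remaining 13 called genes, which the naming rule does not cover and which are listed after their values were seen, were Dctn2, Ndufa2, Trp53, Aprt, Maged2, Tspan13, Eif2b2, Ist1, Cd1d1, Zc4h2, Usp32, Dcakd and Zc2hc1a, at 1.03 to 1.37. None of the 25 is in any of the 22 gene lists described below. Of the 25, 6 have exons that overlap another gene, and the libraries carry no strand.

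Most of these calls were lost in cells matched on detected genes. For this, 38 cells with Fezf2 were each paired with 1 cell without it in the same format and within 10% in detected genes (medians 2964 and 2999.5). The median difference of all genes was then -0.02, and of 8634 measured genes 23 (0.266%) were higher and 26 (0.301%) lower by the stricter rule. By the looser rule 24.9% were higher and 26.6% lower, and the counts of lists in matched cells below are to be read against these shares. Of the 25 genes, 5 were called again: Mrpl32 (1.66), Abi1 (1.52), Pafah1b2 (1.36), Serinc2 (1.35) and Usp32 (1.25), the last a ubiquitin protease. For the other 20 the matched difference was under 1 in at least 1 format, as for Cpe (1.00 over both formats), Vbp1 (0.54, with -0.23 in A and 1.31 in B) and Trp53 (0.45, with -0.27 in A and 1.18 in B), the p53 tumour suppressor. The matched differences were above 0 in each format for 20 of the 25.

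Raising the bar for Fezf2 gave more calls of the same direction when cells were not matched on detected genes. With Fezf2 of at least 5 RPKM (32 cells) against under 1 (75 cells), 47 of 7947 genes (0.591%) were higher and 0 (0%) lower, and 12 of the 25 were among the 47. By the looser rule, 39.1% of the genes were higher and 15% lower in this split. Both splits share the 75 cells without Fezf2. Serinc2 was at 1.45, Mrpl32 at 1.52, Pafah1b2 at 1.87 and Myl6 at 2.03 in this split. Abi1 was at 1.42, but at 2.26 in A and 0.77 in B, so it was not called there. With the same bar in matched cells, 40 of 8647 genes were higher and 27 lower, so the calls went in both directions there.

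**Figure D4:**
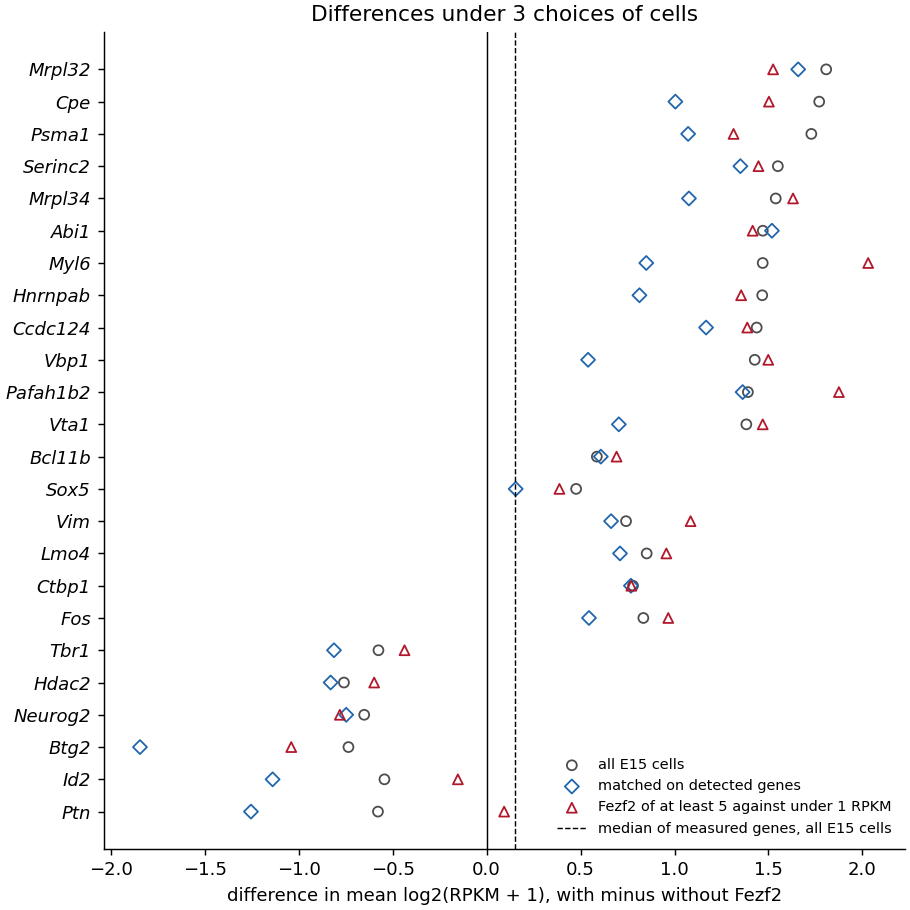
Difference in mean log2(RPKM + 1), with minus without Fezf2, for the 12 genes with the largest differences and for 12 markers, under 3 choices of cells: all E15 cells (circles), cells matched on detected genes (diamonds), and Fezf2 of at least 5 against under 1 RPKM (triangles). The dashed line is the median of the measured genes over all E15 cells (0.15). The 3 choices share cells, and the 12 genes were picked on all E15 cells, so the choices are not independent. Over both formats, Mrpl32, Serinc2, Abi1 and Bcl11b kept similar values under all 3. Within formats, Abi1 was at 2.26 in A and 0.77 in B with Fezf2 of at least 5 RPKM. Vbp1 was at 1.43 in all cells and 0.54 in matched cells, and Btg2 at -0.74 and -1.84.

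The 2 other deep layer markers set beside Fezf2, Bcl11b and Sox5, were detected in most cells of both groups. Bcl11b, a zinc finger factor that corticospinal neurons need for their axons, was detected in 38 of 46 cells with Fezf2 (82.6%, interval 68.6 to 92.2%) and in 49 of 75 without it (65.3%, 53.5 to 76.0%). Its RPKM ran from 0 to 85.7 with a median of 6.25 in the first group and from 0 to 67.1 with a median of 5.55 in the second. The medians were close and the ranges overlapped throughout, and the groups differed mainly in the share of cells in which it was found. The difference in level was 0.59, with 0.56 in A and 0.60 in B, and it was 0.69 with Fezf2 of at least 5 RPKM. In matched cells it was 0.61, but the formats lay further apart, with 0.25 in A and 0.97 in B. Taken over all cells of each choice of processing and cells, the difference stayed between 0.43 and 0.91, under the bar of 1 that a call needs.

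Sox5, an SRY-box factor of layer 6, subplate and subcerebral neurons, was detected in 82.6% of cells with Fezf2 and in 76.0% of cells without it. Its median was 6.53 RPKM (0 to 48.9) with Fezf2 and 5.55 (0 to 49.3) without. The difference in level was 0.48 (0.23 in A and 0.75 in B) and 0.15 in matched cells, where the formats had opposite signs (-0.15 in A and 0.46 in B). In matched cells the share with Sox5 was the same in both groups, 31 of 38. Its exons overlap those of the antisense gene Sox5os1. Bcl11b and Sox5 were found together in 33 cells with Fezf2 (71.7%, interval 56.5 to 84.0%) and in 38 without it (50.7%, 38.9 to 62.4%). In matched cells the pair was found in 27 of 38 cells with Fezf2 (71.1%, 54.1 to 84.6%) and in 22 of 38 without it (57.9%, 40.8 to 73.7%), with intervals that overlap.

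Tbr1, the T-box factor of layer 6 and subplate neurons, lay on the other side. It was detected in 29 cells with Fezf2 (63.0%) at a median of 1.84 RPKM (0 to 58.5), and in 54 cells without it (72.0%) at a median of 4.27 RPKM (0 to 128). The difference in level was -0.58 (-0.80 in A and -0.38 in B), and it was -0.81 in matched cells and -0.44 with Fezf2 of at least 5 RPKM. It remained below 0 under every choice tried, from -0.81 to -0.16. Within the 46 cells with Fezf2, Spearman's rho between the RPKM of Fezf2 and Tbr1 was 0.22, and over all 121 cells it was -0.04. For Bcl11b the 2 values were 0.10 and 0.15, and for Sox5 -0.01 and 0.18, so the amount of Fezf2 tracked none of the 3 closely.

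Of 16 genes of layer 5 subcerebral neurons 4 were measured, and 2 were higher and 1 lower in both formats (median difference 0.32 against 0.15 over all genes). In matched cells 5 were measured, 1 higher and 1 lower, with a median of -0.01. Pcp4, a calmodulin-binding peptide of layer 5 neurons, was at 0.63, but at 0.11 in A against 1.06 in B and at -0.01 in matched cells (-0.26 and 0.24). Crim1, a transmembrane protein of corticospinal neurons, was at -0.24. Ldb2 was detected in 1 cell of each group, and Crym, which encodes mu-crystallin, was listed at 0 in every cell. A 0 in every cell may be a gene that was not counted: mt-Co2, mt-Co3 and mt-Atp8, mitochondrially encoded genes that every cell uses, were also listed at 0 in all 121 cells. In the layer 6 and subplate list, 8 of 17 genes were measured, 3 higher and 1 lower (median 0.12), and in matched cells 5 of 10 were higher and 2 lower (median 0.12). Foxp2, a forkhead factor of layer 6, was at 0.36 (0.57 and 0.15), with detection in 47.8% and 37.3% of cells. Tle4, a Groucho co-repressor of corticothalamic neurons, was at -0.72 in A and 0.37 in B, opposite signs in the 2 formats.

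The upper layer factors Cux1, Cux2, Pou3f2 and Pou3f3 were found in cells with Fezf2 at shares whose intervals overlap those in cells without it. Pou3f2, a POU factor, was detected in 36 of 46 cells (78.3%, interval 63.6 to 89.1%) and in 59 of 75 (78.7%, 67.7 to 87.3%). Its median was 37.9 RPKM (0 to 433) with Fezf2 and 51.1 (0 to 459) without, and the groups overlapped fully. The difference was -0.29 (-0.14 in A and -0.56 in B), and it was -0.11 with Fezf2 of at least 5 RPKM. In matched cells it was -0.70, but 0.10 in A and -1.51 in B, so that this pooled value describes neither format.

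The homeobox factors Cux1 and Cux2, markers of upper layers, were at 0.22 and -0.16, with detection in 58.7% of both groups for Cux1 and in 63.0% and 62.7% for Cux2. Pou3f3, a relative of Pou3f2, was at 0.03, with opposite signs in the formats (-0.42 in A and 0.41 in B). Lhx2, a LIM homeobox factor of progenitors and upper layer neurons, was detected in 95.7% and 76.0% of cells but was at 1.19 in A and -0.39 in B, so its pooled value of 0.45 describes neither format. Of the 15 measured genes among 20 in this list, 6 were higher and 3 lower, with a median of 0.14 against 0.15 over all genes. In matched cells 5 of 15 were higher and 2 lower, with a median of 0.07.

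Lmo4, a LIM-only co-factor that marks callosal and some corticospinal neurons, differed more than the others of the list. It was detected in 29 cells with Fezf2 (63.0%, interval 47.5 to 76.8%) and in 27 without it (36.0%, 25.2 to 47.9%), at medians of 1.45 RPKM (0 to 51.6) and 0.09 (0 to 64.2). The difference was 0.85 (0.41 in A and 1.25 in B). In matched cells it was 0.71, with -0.075 in A and 1.495 in B, and the gene was detected in 24 and 17 of 38 cells. Unc5d, a netrin receptor of migrating neurons bound for upper layers, was at 0.57 (0.32 and 0.75). It was at 0.70 in matched cells, and at 1.16 with Fezf2 of at least 5 RPKM. Ptn, the growth factor pleiotrophin, was at -0.58 (-0.90 and -0.35) and at 0.09 in that split. In matched cells Ptn was at -1.25 (-1.10 in A and -1.41 in B), which is lower by the stricter rule.

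Deep and upper layer factors were found in the same cells in both groups. Bcl11b and Pou3f2 were detected together in 30 cells with Fezf2 (65.2%, interval 49.8 to 78.6%) and in 41 without it (54.7%, 42.7 to 66.2%). The deep layer factors Bcl11b, Sox5 and Tbr1 were all detected in 22 cells with Fezf2 (47.8%, 32.9 to 63.1%) and in 31 without it (41.3%, 30.1 to 53.3%), and none of the 3 in 1 and 4 cells. Both pairs of intervals overlap. In matched cells the first pair was found in 24 and 21 of 38 cells, and all 3 deep layer factors in 18 and 19.

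**Figure D5:**
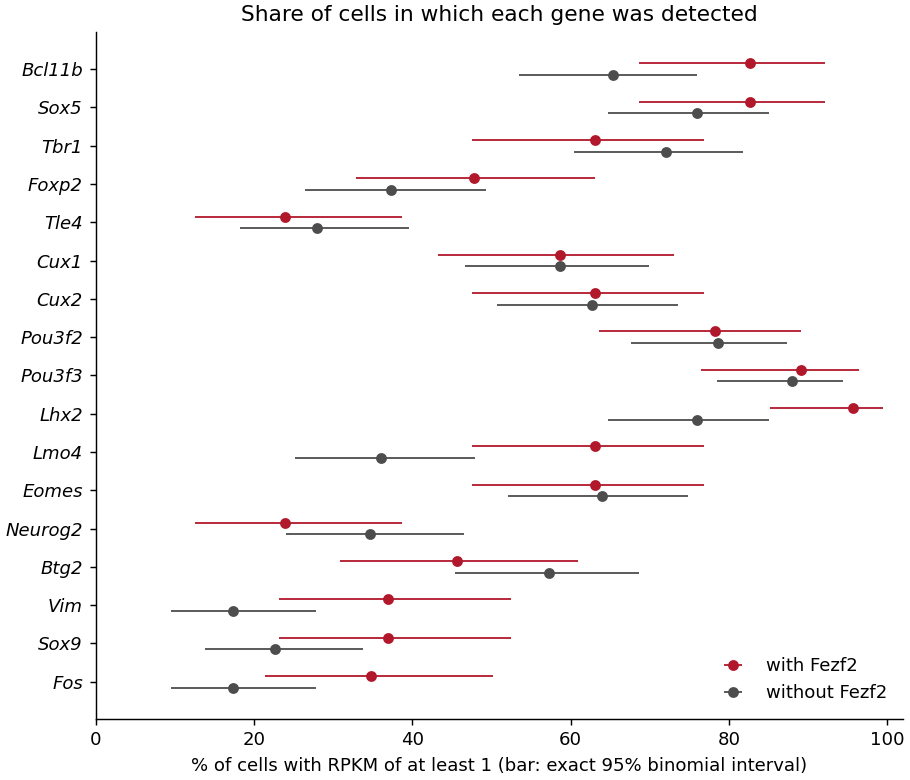
Share of E15 cells in which each gene was detected (RPKM of at least 1), in % with exact 95% binomial intervals as bars, for cells with Fezf2 (red, 46 cells) and without it (grey, 75 cells). Cux1, Cux2 and Pou3f2 had nearly the same share in both groups, Lmo4 (63.0% and 36.0%) and Vim (37.0% and 17.3%) lay further apart, and Tbr1, Tle4, Neurog2 and Btg2 had the lower share in cells with Fezf2.

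Among factors linked to Fezf2 in its regulation or as partners, 19 of 21 were measured, 6 of them higher and 5 lower, with a median of 0.03. In matched cells 5 were higher and 6 lower, with a median of -0.09. Ctbp1, a transcriptional co-repressor, was at 0.78 (0.60 in A and 0.92 in B), with detection in 45.7% and 28.0% of cells, and at 0.77 in matched cells. The histone deacetylase gene Hdac2 was at -0.76 (-0.55 and -0.97). It was detected in 69.6% of cells with Fezf2 at a median of 6.99 RPKM and in 80.0% without it at a median of 17.3, and it was at -0.83 in matched cells. The SRY-box factors Sox4 and Sox11, which act on Fezf2 in cortical neurons, were detected in nearly every cell and differed by 0.03 and -0.06. Fezf1, the closest relative of Fezf2, was listed at 0 in all 121 cells.

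Markers of progenitors lay on both sides of 0. Of 10 measured radial glia genes among 23, 6 were higher and 0 lower in both formats (median 0.13). Vim, the intermediate filament vimentin of radial glia, was detected in 17 of 46 cells with Fezf2 (37.0%, interval 23.2 to 52.5%) and in 13 of 75 without it (17.3%, 9.57 to 27.8%). Most cells of both groups were near 0, and the highest reached 100.8 and 102.4 RPKM. The difference was 0.74 (0.59 in A and 0.90 in B), and 1.09 with Fezf2 of at least 5 RPKM. In matched cells it was 0.66 (0.23 in A and 1.10 in B). Of the 30 cells with Vim, 17 had Fezf2 (56.7%, 37.4 to 74.5%). These 30 cells all had at least 1912 detected genes.

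Sox9 and Gli3, factors of neural stem cells, were at 0.44 and 0.30. In matched cells Sox9 was at 0.56 (0.21 in A and 0.90 in B) and Gli3 at 0.47 (0.46 and 0.49). Pax6, the paired-box factor of radial glia, was at 0.14 and at -0.20 in matched cells. Sox2, a defining factor of radial glia, reached 1 RPKM in 0 of 46 cells, which allows a share of up to 6.52% (3 cells of 46, a floor rather than an exact interval), and in 5.33% of 75 cells. The Notch target Hes1 was listed at 0 in all cells. The radial glia list as a whole had summed levels of 0 to 211 RPKM (median 47.2) with Fezf2 and 0 to 216 (median 32.3) without, and 5 of its 23 genes were at 0 in every cell. Its median difference in matched cells was -0.03, with 3 higher and 3 lower. The labels call the sorted cells glutamatergic progenitors, yet Neurod6, a gene of young glutamatergic neurons, was detected in 45 of 46 cells with Fezf2 and in 73 of 75 without, at mean levels of 760 and 730 RPKM.

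Of the genes of the step from progenitor to neuron, Neurog2 and Btg2 were lower in cells with Fezf2. Neurog2, whose regulatory sequences drive the recombinase, was detected in 11 cells with Fezf2 (23.9%, interval 12.6 to 38.8%) and in 26 without it (34.7%, 24.0 to 46.5%). Its median was 0 in both groups and its highest value 30.0 RPKM with Fezf2 and 63.3 without. The difference was -0.65 over all cells, -0.67 in each format and -0.75 in matched cells. In format A, 1 of 22 cells with Fezf2 and 10 of 38 without it had Neurog2, and in format B 10 of 24 and 16 of 37. Btg2, an antiproliferative gene of neurogenic divisions, had a median of 0.23 RPKM (0 to 465) with Fezf2 and 23.4 (0 to 276) without. Its difference was -0.74 (-0.82 and -0.64) and -1.84 in matched cells. The means of Btg2 were alike at 55.1 and 54.8 RPKM, so on the log2 of the mean RPKM the difference was 0.01.

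Eomes, the T-box factor of intermediate progenitors, did not follow them over all cells. It was detected in 63.0% of cells with Fezf2 and 64.0% without, at 0.61 in A and -0.32 in B. In matched cells Eomes was at -0.50 and below 0 in each format, as they were (-0.24 in A and -0.76 in B). Nhlh1 and Hes6, helix-loop-helix genes of newborn neurons, were at 0.48 and 0.52. In matched cells Nhlh1 was at 0.46 (0.56 in A and 0.35 in B) and Hes6 at -0.13. Over the 15 measured genes of this list among 18, 4 were higher and 2 lower (median 0.15). In matched cells 2 were higher and 7 lower, with a median of -0.10.

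At least 1 of 23 genes of the G2 and M phases was detected in 97 of the 121 cells. At least 5 of the 23 were detected in 8 cells with Fezf2 (17.4%) and in 10 without it (13.3%). Of these 23 genes 14 were higher and 1 lower in both formats, with a median of 0.22. In matched cells the direction was the opposite, with 1 higher, 13 lower and a median of -0.24. Top2a, the topoisomerase of chromosome condensation, was at 0.44 and then at -0.19, and Ccna2, cyclin A2, at 0.58 and 0.38. For the 16 genes of DNA replication, 12 were measured, with 6 higher and 3 lower (median 0.12), against 4 and 4 in matched cells (median -0.09). Rrm1, a subunit of ribonucleotide reductase, was at 0.76 (1.36 in A and 0.18 in B) and at -0.08 in matched cells (0.36 and -0.52).

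Genes of glutamatergic differentiation were at similar levels in both groups. Of 20 genes 18 were measured, 9 higher and 3 lower (median 0.21), against 5 and 5 in matched cells (median -0.02). Neurod6, Neurod1 and Neurod2, helix-loop-helix factors of young glutamatergic neurons, were at 0.32, 0.21 and 0.20. Slc17a6, the vesicular glutamate transporter of immature cortical neurons, was at 0.50 and at -0.10 in matched cells (-0.92 in A and 0.72 in B). Bcl11a, a zinc finger factor related to Bcl11b, was at 0.47 and at 0.05 (-0.02 and 0.11). The helix-loop-helix inhibitor Id2 was at -0.54 (-0.13 in A and -1.05 in B), with medians of 207 RPKM (0 to 1636) with Fezf2 and 266 (0 to 2068) without. On the log2 of the mean RPKM its difference was -0.16. In matched cells it was at -1.14, though its means were alike there, at 305.5 RPKM with Fezf2 and 301.0 without.

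Among 26 measured pan-neuronal genes of 29, 10 were higher and 3 lower (median 0.10). In matched cells 27 were measured, 4 higher and 6 lower, with a median of 0.00. Tubb3, neuronal beta-tubulin, was at 0.49 and at 0.03 in matched cells (-0.36 and 0.41). Crmp1, a mediator of semaphorin signals on the cytoskeleton, was at 0.68 (0.65 and 0.73). In matched cells it was at 0.28, with opposite signs in the formats (-0.17 in A and 0.72 in B). Elavl2, an RNA-binding protein of neurons, was at -1.14 in A and 0.06 in B. Of 20 glutamate receptor genes 3 were measured, with differences from -0.09 for Gria2 to 0.03 for Grik2.

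Receptors and ligands of axon guidance were mostly shared. Of 43 genes 33 were measured, 14 higher and 3 lower, with a median of 0.15 that equals that of all genes. In matched cells 10 were higher and 4 lower (median 0.12). Epha4, an ephrin receptor that corticospinal axons use at the midline, was at 0.62 (1.11 in A and 0.10 in B) and at 0.56 in matched cells. With Fezf2 of at least 5 RPKM it was at 0.01 (0.16 in A and -0.24 in B). Efnb1, an ephrin ligand, was at 0.56 and Nrp2, a semaphorin receptor, at 0.42, or 0.20 and 0.13 in matched cells, where both were below 0 in A and above 0 in B. The slit receptor Robo2 was at -0.41 (-0.23 and -0.60).

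Regulators of pallial identity had 6 of 16 measured genes higher and 3 lower (median 0.11). In matched cells 17 were measured, 3 higher and 8 lower (median -0.18). Emx1, a dorsal homeobox factor, was at 0.35 and at 0.01 in matched cells (-0.11 and 0.13). Of the early temporal program, genes of young cortical progenitors, 4 of 9 were measured and 2 were higher (median 0.26), with 2 higher and 0 lower in matched cells (median 0.08). Igf2bp3, an RNA-binding protein of that program, was at 0.54 (0.42 and 0.61) and at 0.51 in matched cells. Immediate early genes, which respond to activity and to handling of cells, had 3 of 7 measured genes higher and 2 lower (median 0.22), and in matched cells 2 and 2 (median 0.14). Fos was detected in 34.8% of cells with Fezf2 and in 17.3% without it, with a difference of 0.83 (0.72 and 0.96). In matched cells the difference of Fos was 0.54 (0.15 in A and 0.94 in B). Egr1 was detected in 17.4% and 2.67% of cells and was at 0.54 (0.91 and 0.19). Mitochondrially encoded genes differed by a median of 0.00, or -0.30 in A and 0.28 in B, with 8 of 13 measured and 1 higher in both formats. In matched cells 4 were higher and 0 lower, with a median of 0.04.

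Markers of most other cell types were listed at 0 or detected in few cells. As above, a gene listed at 0 in every cell may not have been counted. For interneurons, 13 of 16 genes were listed at 0 in every cell, Gad1 and Gad2 among them, and 15 were under 1 RPKM in every cell. The 9 cells with any member detected had Sp8, which is also in the list of pallial identity. Microglial genes were detected in 0 of 121 cells (which allows a share of up to 2.48%, again 3 cells of the total), vascular, mural and meningeal genes in 1 and red blood cell genes in 5. In 10 cells a gene of the oligodendrocyte lineage was detected. At least 1 of the 9 genes of the Cajal-Retzius list was detected in 46 of the 121 E15 cells. The most often detected was Nhlh2, in 13 cells with Fezf2 and 21 without. Reln, the secreted marker of Cajal-Retzius cells, was detected in 8.70% of cells with Fezf2 and 5.33% without. The summed level of that list ran from 0 to 41.2 RPKM with Fezf2 and from 0 to 242 without, with medians of 0.05 and 0.01.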

How the data were processed

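RNA of 121 single E15 cells was measured. Per the submitters' processing notes, the authors used bcl2fastq 2.15.0.4, cutadapt 1.9.1, STAR, featureCounts and the GRCm38.p4 build; the annotation and counting options are not given in the sources used here. The deposited values are RPKM, with 1 column per cell. Libraries of 75 bp single reads had a stated depth of 7 M reads; read totals, estimated per cell from the spacing of its lowest values with exon unions of GENCODE M21 (lengths for 45640 of 46983 names), had a median of 6.50 M (2.49 to 12.3 M).

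Levels were means of log2(RPKM + 1), with no test, since E15 is 1 sample. Alternatives varied the pseudocount, scaling, filters, detection limit, Fezf2 threshold and cells included. Matching was 1 to 1 on detected genes within 10% in the same title format. Genes named are the 12 with the largest difference in each direction among genes called and detected in at least 25% of either group (0 were lower), without predicted models, Xist, Tsix and Y-linked genes, with up to 4 measured genes of each list by absolute difference and 35 fixed genes. Sox4, Sox11, Robo2, Usp32, Sec13 and Copb1 were named outside this rule, after their values were seen. Some genes of the rule are not reported here. The groups, the 22 lists (379 entries) and the rule were chosen with earlier results of these data known. The comparison was tested on the E15 cells split at random within each title format, with known changes put into some genes. Scripts used scipy 1.17.1, matplotlib 3.10.9, pandas 2.3.3 and numpy 2.4.6 under Python 3.11.15.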

Additional observations from a re-analysis of the deposited data

How the results depend on the processing

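The 25 genes higher and 0 lower with Fezf2 moved with the scale and with the cells compared. Higher and lower genes numbered 278 and 9 with a pseudocount of 0.1, 247 and 6 on the TPM scale, and 211 and 159 when RPKM was averaged before the log2. Centring on the median of all genes, added after seeing the data, gave 14 and 2. There were 30 and 1 with Fezf2 above 0 against 0 (9 shared with the 25), and 47 and 0 with Fezf2 of at least 5 against under 1 RPKM. Without cells with few detected genes there were 21 and 4, and 17 of the 21 were among the 25. Leaving out cells above 20% mitochondrially encoded RPKM gave 38 and 3, format B alone 203 and 65, and format A alone 485 and 26. In matched cells there were 23 and 26, and with Fezf2 of at least 5 RPKM as well, added after seeing the data, 40 and 27. The log2 of the mean shared 7 of the 25, and the setting without cells with many G2 and M genes shared 15. The cause of these moves was not tested, except that within 1 format alone a gene has to pass the bar once.

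By the looser rule, 3303 genes were above and 1122 below 0 in each format. Those above 0 numbered 2137 with centring, 2077 with detection in at least 25% of cells (fewer genes tested), 2147 in matched cells and 5384 in format A alone. Those below 0 numbered 2136 with centring, 491 with detection in at least 25%, 1829 with the log2 of the mean, 2297 in matched cells, 2249 in matched cells with Fezf2 of at least 5 RPKM, 3001 with no filter, 3561 in format B alone and 2598 in format A alone. The difference of 340.5 in detected genes was 518.5 with detection above 0, 195.5 with detection at 5 RPKM, and -35.5 and -30.5 in the 2 matched comparisons, which equalise it by construction. 1 RPKM of Fezf2 stood for 19.8 reads at the median. For these 5 results, 49 other combinations with an alternative stayed near the value reported. No paired analysis was possible because cells carry no replicate number that links the groups.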

Other observations

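In matched cells, 26 genes were at least 1 lower with Fezf2 in each format, and these were named after their values were seen. Btg2 led them at -1.84. Atf4, the transcription factor of the integrated stress response, was at -1.65. In all cells it was at -0.94, but at -0.07 in A and -1.80 in B. Uqcrb, a subunit of respiratory complex III, was at -1.59 (-0.89 in all cells). Gt(ROSA)26Sor, the noncoding transcript of the locus that holds the Ai14 reporter, was at -1.32 and at -0.73 in all cells, where it was detected in 28.3% of cells with Fezf2 and 37.3% without. Among the genes higher in matched cells, Sec13 (1.60) and Copb1 (1.57), coat proteins of transport vesicles, stood beside Mrpl32 and Abi1. Sec13 and Copb1 were also named after their values were seen.

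Sex-dependent transcripts were spread over both groups. Xist, expressed from the inactive X chromosome, was detected in 22 of 46 cells with Fezf2 (47.8%, exact 95% interval 32.9 to 63.1%) and in 29 of 75 without it (38.7%, 27.6 to 50.6%). Any of 4 Y-linked genes was detected in 13 (28.3%) and 19 cells (25.3%), and both kinds together in 2 and 3 cells.

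In format B, 8 cells had title numbers from 62 to 69, 4 of them with Fezf2. A second title number was shared with another cell in 4 of the 8, and those pairs had correlations of 0.36 to 0.38, against a median of 0.36 over all pairs of the format.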
